A study of Mus musculus with 2 samples.

Results

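Isl1 binding was examined at 32 genes that encode ion channels, calcium handling proteins and connexins, a chosen part of those of the heart. They were chosen by name, for what their products are known to do, but with earlier results of these data known. A gene counted as having a peak where the deposited list of Isl1 ChIP-Seq peaks assigned at least 1 peak to its symbol. Of these genes, 28 had a peak and 204 of the 48295 peaks of the list carried one of their names. The list was deposited under 1 sample, chromatin precipitated with an Isl1 antibody (clone 39.4D5) from the cardiogenic mesoderm and heart region of C57BL/6 mouse embryos between E8.25 and E9, with 60 to 80 embryos pooled. No genotype or treatment is given in the labels. The matching input, chromatin taken before the precipitation, was not analysed here, and the number of reads behind each peak is unknown, since the list gives positions and distances to the closest transcription start site (TSS) but no height. There was 1 such list and no list of a replicate to set beside it, and whether it is itself an overlap of replicate experiments could not be settled, so all values describe these peaks, without a test. The dissected region holds several cell types, which the list does not separate, and it holds no expression values against which the region could be checked.

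A heartbeat starts with an electrical impulse that spreads from cell to cell through gap junctions made of connexins. Depolarization opens voltage-gated calcium channels, the calcium that enters triggers a larger release from the sarcoplasmic reticulum, and the calcium is then pumped back or carried out of the cell while potassium channels restore the resting potential. Isl1 is a LIM-homeodomain transcription factor of the second heart field, the progenitors that add the outflow tract, the right ventricle and much of the atria. Contraction begins in the stages sampled here.

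The sequences under the peaks closest to a TSS were of 2 kinds, and the 200 bp around the midpoint are shown for 7 genes with a peak within 10 kb of the TSS and a window outside annotated exons. The windows of the Hcn2 and Gjc1 peaks, which were as close, lay over an exon and are not printed. All sequences are from the plus strand of mm9, 5′ to 3′. In the first group, within 200 bp of the TSS, the capitals mark each CG dinucleotide.
Atp2a2 chr5:122952246-122952445: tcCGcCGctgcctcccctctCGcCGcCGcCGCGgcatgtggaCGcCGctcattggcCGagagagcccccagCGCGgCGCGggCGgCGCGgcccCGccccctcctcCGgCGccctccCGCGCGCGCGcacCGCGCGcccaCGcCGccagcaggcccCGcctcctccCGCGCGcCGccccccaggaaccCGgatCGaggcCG
Cacna1d chr14:31166747-31166946: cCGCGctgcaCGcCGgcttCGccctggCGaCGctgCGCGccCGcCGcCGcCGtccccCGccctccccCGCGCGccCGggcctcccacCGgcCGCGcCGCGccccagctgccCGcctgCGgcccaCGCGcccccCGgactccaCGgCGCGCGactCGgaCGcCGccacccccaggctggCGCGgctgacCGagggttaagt
Cacna1c chr6:119058611-119058810: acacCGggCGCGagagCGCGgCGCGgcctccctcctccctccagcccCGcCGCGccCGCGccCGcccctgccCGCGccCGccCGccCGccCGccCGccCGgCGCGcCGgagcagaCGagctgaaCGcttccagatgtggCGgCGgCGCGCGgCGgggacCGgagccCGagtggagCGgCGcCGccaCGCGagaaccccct
These windows held 38, 38 and 39 CG dinucleotides, and G and C made up 84% of the first and the second and 83.5% of the third. In the other group the capitals mark the longest uninterrupted run of purines (A or G) or of pyrimidines (C or T) in the window.
Kcnj3 chr2:55291256-55291455: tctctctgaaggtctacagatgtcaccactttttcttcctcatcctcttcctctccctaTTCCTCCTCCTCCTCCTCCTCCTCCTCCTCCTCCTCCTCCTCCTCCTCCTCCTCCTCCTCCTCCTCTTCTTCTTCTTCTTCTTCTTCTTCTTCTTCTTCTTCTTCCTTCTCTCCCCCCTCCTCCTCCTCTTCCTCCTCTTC
Cacna1g chr11:94331477-94331676: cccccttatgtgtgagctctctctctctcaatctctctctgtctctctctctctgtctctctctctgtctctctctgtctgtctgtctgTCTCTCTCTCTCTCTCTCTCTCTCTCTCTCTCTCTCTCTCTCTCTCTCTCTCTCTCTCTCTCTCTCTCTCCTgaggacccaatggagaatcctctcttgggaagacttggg
Cacna2d1 chr5:15435850-15436049: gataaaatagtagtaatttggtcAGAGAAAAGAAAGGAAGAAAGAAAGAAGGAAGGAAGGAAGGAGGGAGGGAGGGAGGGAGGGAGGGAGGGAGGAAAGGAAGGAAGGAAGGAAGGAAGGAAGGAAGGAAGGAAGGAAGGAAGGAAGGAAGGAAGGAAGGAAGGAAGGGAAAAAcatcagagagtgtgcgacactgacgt
Kcne1 chr16:92365815-92366014: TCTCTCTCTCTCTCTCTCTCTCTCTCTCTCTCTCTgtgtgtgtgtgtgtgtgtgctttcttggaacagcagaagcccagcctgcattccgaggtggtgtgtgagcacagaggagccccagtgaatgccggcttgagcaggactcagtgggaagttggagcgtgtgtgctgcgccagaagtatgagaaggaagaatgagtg
The runs were 141, 72, 151 and 35 bases long. They consisted of CCT and CTT units at Kcnj3, of CT units at Cacna1g and Kcne1, and of GGAA and GGGA units at Cacna2d1.

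The share of genes with a peak was read against all 22225 protein-coding genes of the annotation. Of the 32 genes, 28 (87.5%) had a peak, and 48.8% of all protein-coding genes did (52.4% of those that RefSeq also lists as coding). At least 2 peaks were present at 24 genes (75%), with 28.9% among all. A peak within 10 kb of the TSS was present at 14 genes (43.8%), with 24.1% among all. Gene length moved with these shares, and its part in them was not tested. The median length was 75.8 kb for the 32 genes and 15.5 kb for all protein-coding genes, and 20 of the 32 fell into the longest of 5 equal length classes of all genes, of 55 kb or more. In that class, 17 of the 20 (85%) had a peak, beside 79.1% of all its genes, and 9 of the 20 had one within 10 kb, beside 35.8%. In the 4 shorter classes, from short to long, 26.5%, 37.5%, 45.1% and 55.9% of all genes had a peak. The members there were few: 1 of 1, 1 of 1, 5 of 5 and 4 of 5 had a peak.

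**Figure D1:**
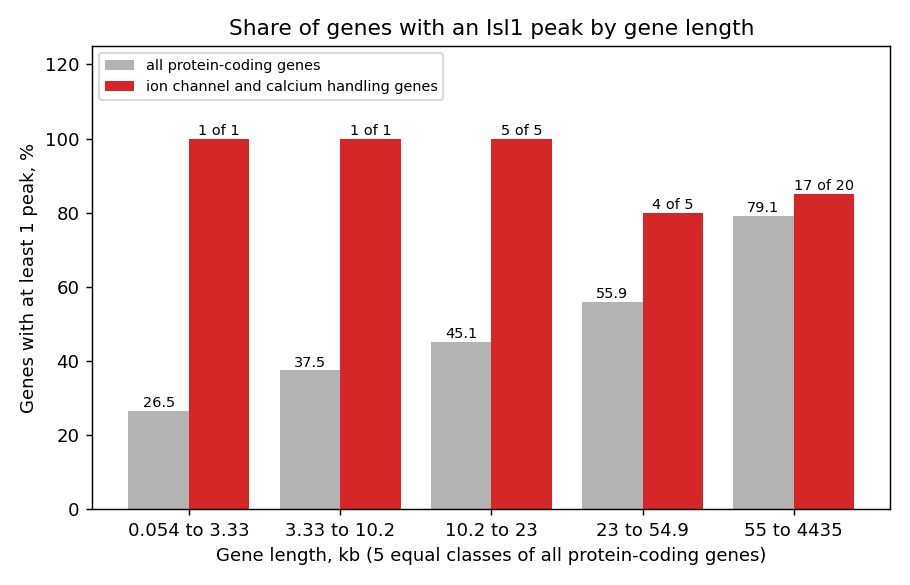
Share of genes with at least 1 Isl1 peak (percent, y axis) by length class (kb, x axis; 5 equal classes), for all protein-coding genes (grey) and the 32 ion channel and calcium handling genes (red, with counts). In the longest class the bars stand at 79.1% and at 85% (17 of 20); the shorter classes hold 12 of the 32 genes.

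The number of peaks per gene ranged from 0 to 30, with a median of 3.5 and a mean of 6.38, beside a median of 0 and a mean of 1.73 over all protein-coding genes. Since a peak takes the name of the closest TSS, a gene far from its neighbours collects the peaks of a wide span. That span, from the middle of the gap to the coding TSS on one side to the middle of the gap on the other, had a median of 248 kb for the 32 genes and 48.7 kb for all coding genes. Across the 32 genes the number of peaks had a Spearman correlation of 0.69 with this span (Pearson 0.66) and of 0.34 with gene length (Pearson 0.24); over all genes the Spearman values were 0.64 and 0.41. The genes share 1 list, and a longer span holds more sequence of any kind. Per 100 kb of span, all 32 genes together had 1.66 peaks and all protein-coding genes together 1.41, with 11 of the 32 below the latter. Per 100 kb of gene length the order was the other way, with 3.20 and 3.78 peaks.

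**Figure D2:**
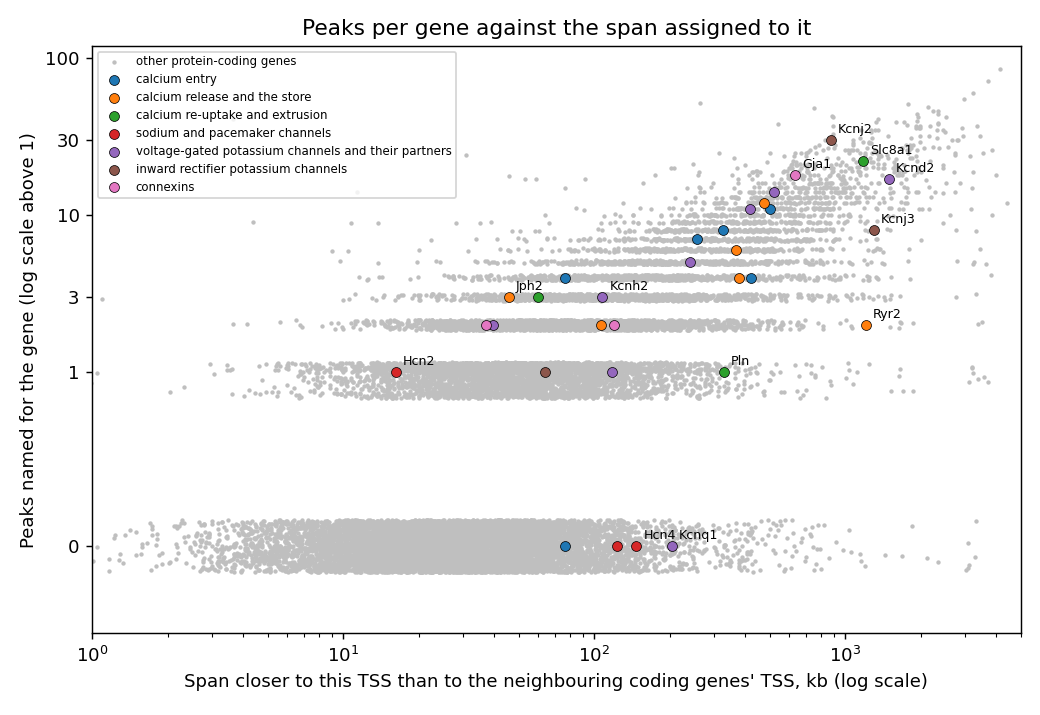
Peaks named for each gene (y axis, log scale above 1, grey points jittered) against the span closer to its TSS than to the neighbouring coding genes (kb, log scale), for the 32 genes by role (coloured) and other protein-coding genes (grey). Kcnj2, Slc8a1, Gja1 and Kcnd2 have 17 to 30 peaks in spans of 634 to 1493 kb. Ryr2 has 2 peaks by name in 1207 kb, and 8 more over its body are named for Zp4-ps.

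The 204 peaks lay at a median of 99.9 kb from the assigned TSS, against 52.7 kb for the peaks of all protein-coding genes and 58.8 kb for the whole list. The median was 56.9 kb without Kcnj2, Slc8a1 and Gja1, the 3 genes with the most peaks. Within 10 kb of the TSS lay 17 of the 204 (8.33%, 95% Wilson interval 5.27 to 12.9%), and 17.2% of the peaks of all protein-coding genes. The intervals, here and below, cover counting error only. They take the peaks as independent, although 3 genes held 70 of the 204, and so may be too narrow. A larger share lay downstream of the TSS: 37.3% were upstream (interval 30.9 to 44.1%), beside 47.5% of the list. All 30 peaks of Kcnj2 were downstream, and without them 43.7% of the other 174 were upstream (interval 36.5 to 51.1%). The peak closest to the TSS of each gene was at a median of 10.8 kb for the 28 genes and 10.3 kb for the 10849 protein-coding genes with a peak. By place, 122 peaks (59.8%) were between genes, 76 (37.3%) in an intron and 6 (2.94%) over an exon, and the corresponding shares of the list were 66.2%, 30.4% and 3.41%.

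**Figure D3:**
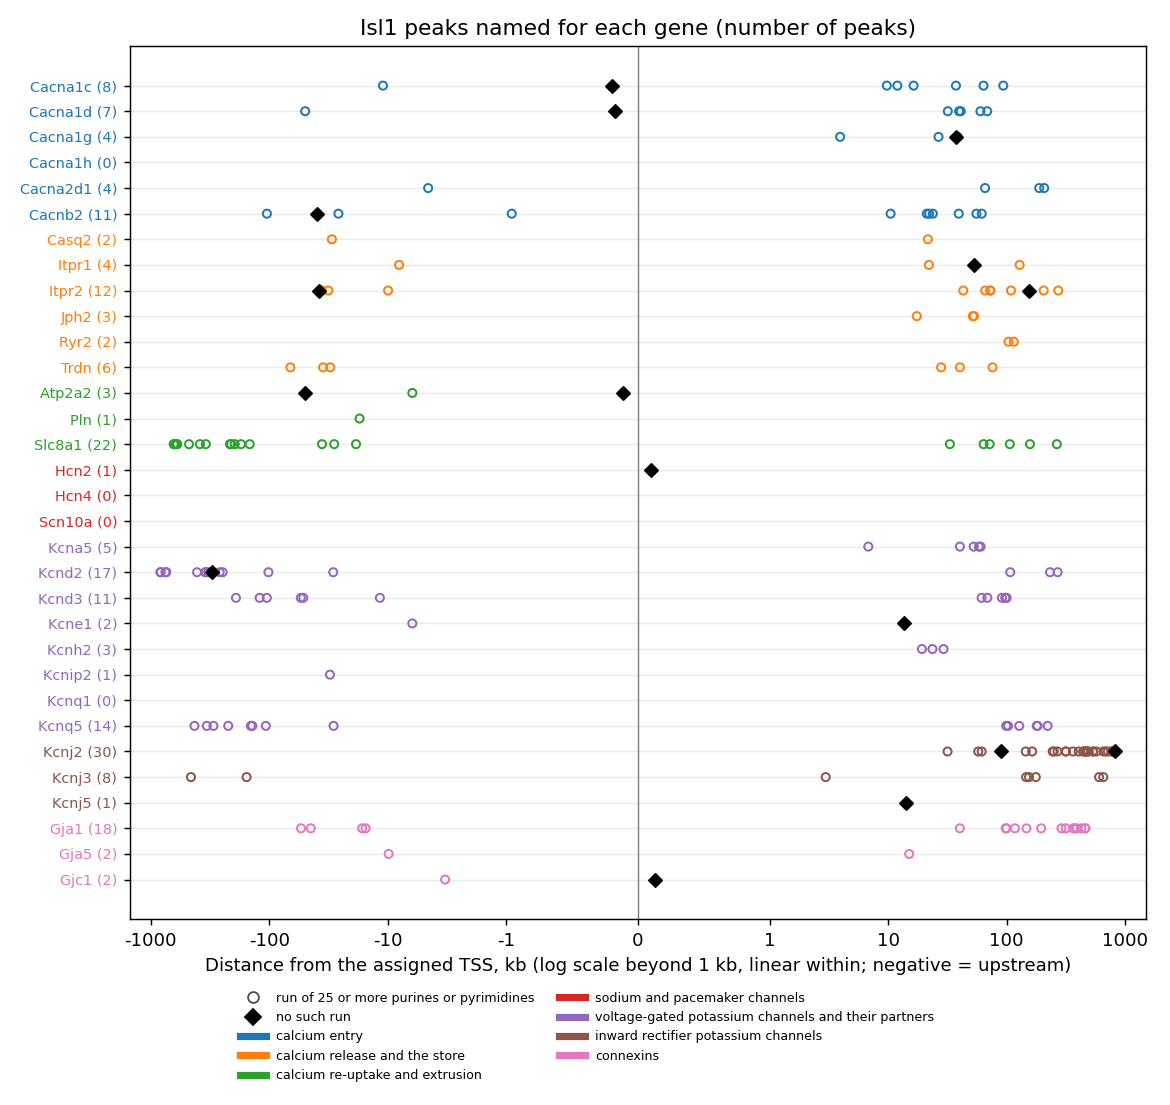
Signed distance of each of the 204 peaks from its assigned TSS (kb, linear within 1 kb and log beyond; negative is upstream) for the 32 genes grouped by role, with the number of peaks after each name. Open circles are peaks with an unbroken stretch of 25 or more purines or pyrimidines and black diamonds the 16 without; all 5 peaks within 200 bp of a TSS are diamonds, and Cacna1h, Hcn4, Scn10a and Kcnq1 have none.

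By count, calcium entry was the group with the most genes that had a peak close to the TSS, though the groups differed in size. Of its 6 genes, 5 had a peak, with 34 peaks in all, and the same 5 each had a peak within 10 kb and a peak over the gene body. The median distance was 37.4 kb, and 28 of the 34 peaks were in an intron. These 6 genes were all in the longest length class, in which 35.8% of all protein-coding genes had a peak within 10 kb. The list used 3 TSSs for Cacnb2 and 2 for Cacna1c, and more than 1 for some genes of other groups. Whether gene length or the number of TSSs raised the count of close peaks was not tested. Cacna1c and Cacna1d encode the pore of the L-type calcium channels, which carry the current that triggers contraction. Cacna1c had 8 peaks, all inside its 604 kb body, and the list measured them from 2 different TSSs. For 7 peaks this was a TSS that lay 87.7 kb inside the gene, downstream of the start of its longest annotated transcript. The closest of these was 0.197 kb upstream of it and the other 6 were 11 to 93.7 kb away. The remaining peak was 9.74 kb downstream of the TSS at the start of the gene. Cacna1d was alike in layout, with 7 peaks, 1 of them 0.174 kb upstream of a TSS that lay 138 kb inside the gene and the others 31.9 to 68.5 kb from it. At both genes the peak next to the TSS was the only one without a run, that is, without 25 or more purines or pyrimidines in a row within 100 bp of its midpoint. Cacna1g, the pore of a T-type channel that opens near the resting potential, had 4 peaks, all in its introns, at 3.94, 26.6, 37.5 and 38.6 kb downstream, and the one at 37.5 kb had no run. Cacnb2, the beta subunit that brings the L-type pore to the membrane, had 11 peaks. Its closest was 0.958 kb upstream, 7 were in its introns, and the one without a run lay 39.5 kb upstream between genes. Cacna2d1, the alpha2delta subunit, had 4, at 4.56 kb upstream and at 65.8, 188 and 207 kb downstream. Cacna1h, the other T-type pore, had no peak. The nearest peaks of any name lay 70.6 kb upstream and 64.2 kb downstream of its start and were named for Sstr5 and Tpsg1.

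Genes of calcium release and of the store all had a peak. All 6 were in the longest length class, where 79.1% of all genes had a peak and 35.8% had one within 10 kb. The 6 genes had 29 peaks, at a median of 51.8 kb, with 18 in an intron and 2 over an exon, and 2 of the 6 had a peak within 10 kb. Ryr2, the release channel of the cardiac sarcoplasmic reticulum, had 2 peaks by name, 104 and 115 kb downstream in its introns. Its 554 kb body overlapped 10 peaks, of which the other 8 were named for Zp4-ps, a gene whose TSS was closer. By span, its 0.166 peaks per 100 kb was the lowest of the 28 genes with a peak. Spans were drawn from coding TSSs only, so that of Ryr2 includes ground whose peaks were named for Zp4-ps. The low value therefore counts names and does not show that peaks were sparse there. Itpr2, an inositol trisphosphate receptor and so a second type of release channel, had 12 peaks. The closest was 9.93 kb upstream of the TSS, 8 lay inside the gene, and 2 of these, 155 and 272 kb downstream, were over its exons. The exon peak at 155 kb had no run longer than 7 bases and a G and C share of 65.5%. A further peak without a run near the midpoint lay 37.7 kb upstream, but it held a run of 139 bases nearer its edge. Itpr1, the other receptor of this type in the list, had 4 peaks, at 8.01 kb upstream and at 22.1, 53.3 and 129 kb downstream, the one at 53.3 kb without a run. Jph2, which ties the sarcoplasmic reticulum to the surface membrane, had 3 intronic peaks at 17.4, 51.8 and 53.0 kb, with runs of 186 to 308 bases. Casq2, the calcium buffer of the store, had 2 peaks, 29.6 kb upstream and 21.7 kb downstream. Trdn, which anchors that buffer to the release channel, had 6 peaks between 28.0 and 76.0 kb from the TSS, 3 on either side.

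The 3 genes of calcium re-uptake and extrusion had 26 peaks, 22 of them at Slc8a1. Atp2a2 encodes the pump SERCA2 that returns calcium to the store. It had 3 peaks, all upstream, at 0.111, 6.20 and 49.8 kb, and the closest, over the start of the gene, and the farthest, in an intron of Ift81, had no run near the midpoint. Pln, the peptide that restrains this pump, had 1 peak 17.3 kb upstream. It lay in an intron of Gm9766, and the body of Pln held none. Slc8a1, the sodium-calcium exchanger that removes calcium from the cell, had 16 peaks upstream, as far as 639 kb, and 6 downstream, as far as 265 kb. All 22 held a run, of 28 to 342 bases, and 3 were inside its annotated body. The TSS that the list used for Slc8a1 was 88.8 kb upstream of that body, so the peaks at 33.2, 63.9 and 72.0 kb downstream were counted as between genes.

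The group of sodium and pacemaker channels had the fewest peaks by name, with 1 peak among its 3 genes. Peaks over these genes under other names are not in that count. Only 1 of the 3 genes was a sodium channel gene, and 8 of the 12 other sodium channel genes, outside the group, had a peak. The 1 peak by name was at Hcn2, a pacemaker channel, 0.099 kb downstream of the TSS over its first part. It had no run and a G and C share of 83%. The body of Hcn2 overlapped 2 peaks, the other named for Polrmt. Hcn4, the main pacemaker channel of the sinus node, had no peak. The nearest lay 62.1 kb upstream and 163 kb downstream of its start and carried the names Rec114 and Neo1. Scn10a, a sodium channel known from sensory neurons and linked to cardiac conduction, had none by name either.

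Voltage-gated potassium channels and their partners had 53 peaks at 7 of 8 genes, at a median of 107 kb, and 2 genes had a peak within 10 kb. Kcnd2 and Kcnq5, with medians of 327 and 161 kb, held 31 of the 53, and the medians of the other 5 genes were 9.94 to 91.2 kb. Of the 53 peaks, 36 were between genes and 17 in an intron. Kcnd2 and Kcnd3, pores of the transient outward current, had 17 and 11 peaks. At Kcnd2, 14 were upstream, from 28.8 to 829 kb, and 3 were in its introns, and the peak 302 kb upstream had no run near the midpoint. At Kcnd3, 6 were upstream and 5 in its introns, and all were between 11.6 and 191 kb from the TSS. Kcnip2, a partner of these pores, had 1 peak, 30.7 kb upstream. Kcnq5, a pore of the same family as Kcnq1, had 14 peaks by name, 28.6 to 427 kb away, while its 564 kb body overlapped 18 peaks, 12 of them named for Khdc1b. Kcna5, pore of the ultrarapid current of the atria and the shortest of the 32 genes at 3 kb, had 5 peaks, all downstream, at 6.80, 40.3, 52.7, 58.3 and 60.3 kb. Kcnh2, pore of the rapid delayed rectifier, had 3, at 19.3, 23.6 and 29.3 kb downstream and past the end of the gene. Kcne1, the small subunit that joins Kcnq1, had 2, at 6.20 kb upstream and 13.7 kb downstream, the latter without a run. Kcnq1, pore of the slow delayed rectifier, had none, although it is 320 kb long, and the nearest peaks of any name lay 94.3 kb upstream and 381 kb downstream of its start.

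Inward rectifier potassium channels, which hold the resting potential, had 39 peaks, 30 of them at Kcnj2. All 30 were downstream and between genes, from 31.7 to 820 kb, and none was within 10 kb of the TSS. The next coding TSS on that side, 1716 kb away, was that of Sox9, a transcription factor gene, so the 30 peaks ended near the middle of the gap at which the name would change. They were a median of 25.9 kb apart, with gaps of 0.817 to 83.4 kb. Of the 30, 28 held a run near the midpoint, and the exceptions lay 89.4 and 815 kb downstream. Kcnj3 and Kcnj5 form the channel that acetylcholine opens in the atria. Kcnj3 had 8 peaks, 1 at 2.97 kb downstream and the others 146 to 653 kb away. Kcnj5 had 1, 14.2 kb downstream in its intron, with a run of 76 bases at its edge and none longer than 5 bases near the midpoint.

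The 3 connexin genes all had peaks. Gja1 and Gjc1 were in the middle length class, where 45.1% of all genes had a peak, and Gja5 in the longest, with 79.1%. Gja1 (connexin 43, the main gap junction protein of the ventricle) had 18, all between genes and all with a run of at least 62 bases, 4 of them upstream from 15.4 to 53.9 kb and 14 downstream from 40.3 to 462 kb. The next coding TSS downstream was Hsf2, 1109 kb away. Gja5 (connexin 40, of the atria and the conduction system) had 2, at 9.82 kb upstream and 15.0 kb downstream, both within its annotated body. Gjc1 (connexin 45, the connexin of the earliest heart) had 2, at 0.132 kb downstream of a TSS and 3.28 kb upstream of another TSS of the gene. The closer peak had no run and a G and C share of 82%, the farther a run of 106 bases and 58%.

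**Figure D4:**
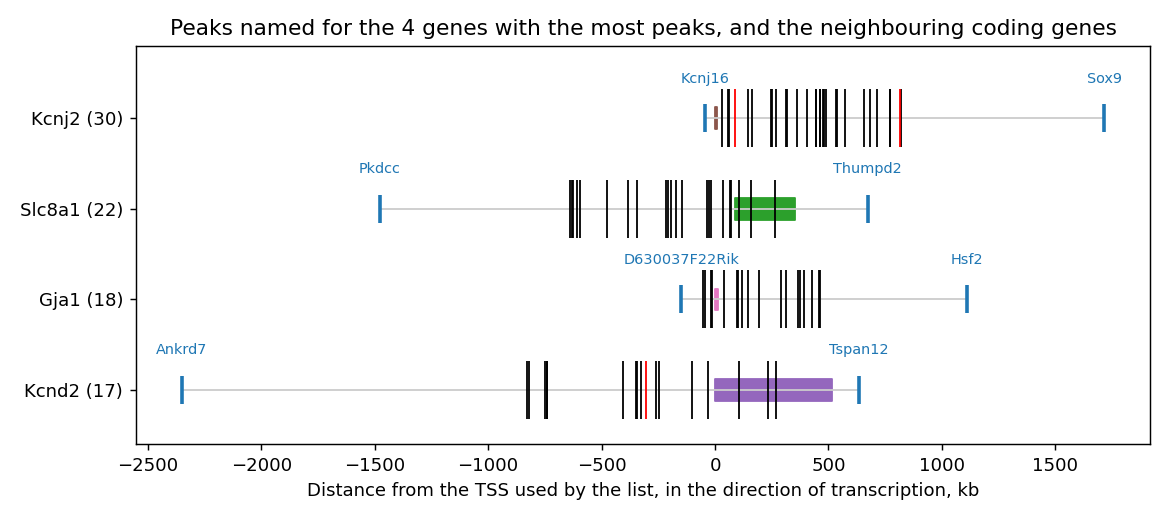
Peaks (vertical lines, black with a run near the midpoint, red without) named for the 4 genes with the most peaks, by distance from the TSS used by the list in the direction of transcription (kb), with annotated gene bodies as bars and the neighbouring coding TSS in blue. Kcnj2 has 30 peaks on 1 side, towards Sox9; Slc8a1 and Kcnd2 have most of theirs upstream, and Gja1 has 14 of 18 downstream.

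The 3 genes with the most peaks, Kcnj2, Slc8a1 and Gja1, held 70 of the 204 (34.3%), and the 8 genes with at least 10 peaks held 135 (66.2%). Between the outermost peaks of each of the 3, over 789, 905 and 516 kb, no peak carried another name. No other gene's coding TSS lay in these stretches, so naming by the closest TSS largely fixed this in advance.

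Names and positions often differed, and peaks over a gene body but named for another gene were mostly at genes of the longest class. Counted by overlap of at least 1 bp with the gene body, whatever the name, 22 of the 32 genes (68.8%) had a peak, beside 28.8% of all protein-coding genes, and 18 of the 20 in the longest class, beside 77.1%. These bodies overlapped 123 peaks, 76 named for the gene itself and 47 (38.2%) for another. Besides Kcnq5 and Ryr2, the genes with the most such peaks were Cacna1d with 6, and Cacna1c and Kcnd2 with 4 each. Per 100 kb of gene body there were 1.93 peaks at the 32 genes and 1.64 at all protein-coding genes, and the Spearman correlation of body peaks with gene length was 0.84 over the 32 genes and 0.61 over all. Within the longest class the densities were 1.92 and 1.72. Conversely, 128 of the 204 peaks lay outside the body of the gene they were named for, 122 of them between genes and 6 over another gene. Among the 128 were all peaks of Kcnj2 and Gja1, which are 10.7 and 13.1 kb long.

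The sequence under the peaks was described by whether an unbroken stretch of 25 or more purines, or of as many pyrimidines, lay no farther than 100 bp from the midpoint, called a run here. It was present at 188 of the 204 peaks (92.2%, Wilson interval 87.6 to 95.1%), at 94.1% of the list, and at 4.90% of equally wide windows 1 kb upstream and downstream of the 204 midpoints. The longest run in a peak had a median of 96.5 bases for these genes and 108 for the list, and its middle lay a median of 38 bp from the midpoint of the peak. Repeats of GA or CT of at least 4 units were present at 57.8% and 56.1%, and repeats of CA or GT of at least 6 units at 22.1% (interval 16.9 to 28.2%) and 15.8%. TAAT or its reverse complement ATTA, the core letters recognised by homeodomain proteins, was present within 100 bp of the midpoint at 74 of the 204 peaks (36.3%, interval 30 to 43.1%), at 35.3% of the list, and at 76.2% of the windows 1 kb away from the 204 peaks. TAATG with C or T before it and A or G after it, on either strand, was present at 8 peaks (3.92%), at 3.21% of the list, and at 9.31% of those windows. It contains TAAT and so is part of the former count. Both motifs mix purines and pyrimidines and cannot lie inside a run, so a window with a run has less room for them. The lower shares near the midpoint than 1 kb away were thus in part fixed by the runs, and do not show that the motifs were avoided. The 204 peaks had a mean G and C share of 49.5%, and the windows at 1 kb of 41.2%.

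The 16 peaks without a run fell to 13 genes (40.6%), beside 9.08% of all protein-coding genes with such a peak. These shares per gene depend on the number of peaks, a mean of 6.38 per gene here and of 1.73 over all protein-coding genes. Per peak the 2 sets were close, with a run at 92.2% of the peaks here and at 93.8% of those of all protein-coding genes. The 16 peaks divided by distance. All 5 peaks within 200 bp of a TSS, at Hcn2, Atp2a2, Gjc1, Cacna1d and Cacna1c, had no run, a G and C share of 82% to 84% and 34 to 39 CG dinucleotides per 200 bp. The list had the same pattern: of its 415 peaks within 200 bp of a TSS, 82.4% had no run, with a median G and C share of 82% and a median of 34 CG dinucleotides. None of the 12 peaks of these genes between 200 bp and 10 kb lacked a run. Only 1 of the 12 lay within 1 kb, where 32.8% of the list had no run, and 11 lay at 1 to 10 kb, where 5.67% had none. Beyond 10 kb lay the remaining 11 peaks without a run. They were 8 of 85 peaks (9.41%) between 10 and 100 kb and 3 of 102 (2.94%) farther away, beside 4.97% and 4.19% of the list. Their G and C share was not high as at the TSS, with medians of 47.2% and 50%. Of the 16, 5 held a run elsewhere in the peak, so 11 peaks had none over their whole width.

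**Figure D5:**
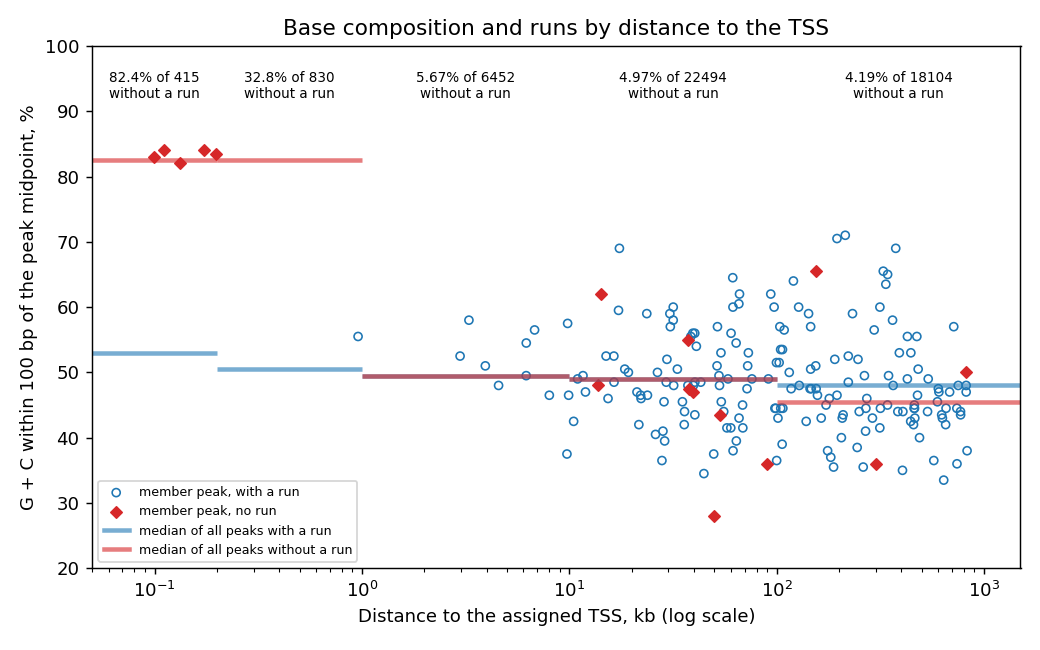
Share of G and C within 100 bp of the midpoint (percent) against distance to the assigned TSS (kb, log scale) for the 204 peaks, with a run (open blue circles) or without (red diamonds), and the medians of the whole list per distance range (lines). The 5 peaks within 200 bp of a TSS stand at 82% to 84% and have no run; the printed shares are the list's peaks without a run.

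The other genes of the same families gave a wider view. Of 92 such genes, 58 (63.0%) had a peak, with 296 peaks in all, and 30 (32.6%) had one within 10 kb, beside 48.8% and 24.1% of all protein-coding genes. Their median length was 24.4 kb, shorter than that of the 32 genes but longer than the 15.5 kb of all protein-coding genes. In the length class that holds this median, 55.9% of all genes had a peak and 26.5% had one within 10 kb. The part of length in these shares was not tested. The most peaks were at the potassium channel partner Kcnip4 (24), the potassium channel Kcna4 (22), Kcnip1 (15), and the potassium channels Kcnh8 (14), Kcnh7 (13) and Kcnh5 (13). Kcna4, with 22 peaks, was 7.86 kb long and had none within 10 kb. Peaks within 1 kb of a TSS included those of Kcnip4 (0.198 kb), Kcnj15 (0.346 kb), the ryanodine receptor Ryr3 (0.503 kb) and Kcnip1 (0.806 kb). Between 1 and 3 kb lay those of Cacna1s (1.02 kb), Jph4 (1.07 kb), Atp2a3, Scn3a (1.15 kb), Gjc3 (2.10 kb), Slc8a3 (2.22 kb), Kcna1 (2.92 kb) and Kcnj16 (2.93 kb). Those of Scn9a, Kcnj6, Gjb2, Cacna2d2, Kcnj1, Kcna6, Kcnip3, Kcnh8, Kcna3, Sln, Gja6, Scn3b, Kcna2, Kcne4, Kcnj11 and Kcna10 were 3.15 to 8.63 kb away. By family, 8 of the 12 other calcium channel genes, 8 of the 12 other sodium channel genes, 18 of the 25 other Kcnq, Kcnh, Kcnd, Kcna, Kcne and Kcnip genes, 8 of the 12 other Kcnj genes and 7 of the 16 other connexin genes had a peak. Of the other ryanodine and inositol trisphosphate receptors, 1 of 3 did, as did 4 of 5 other genes of calsequestrin, junctophilin and triadin and 3 of 5 of the calcium pumps, exchangers and their peptides. Of genes known from skeletal muscle, Ryr1, Casq1, Atp2a1 and Scn4a had none by name, though 1 peak lay over the body of Ryr1. Cacna1s had 2 and the junctophilin gene Jph1 had 3.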

How the data were processed

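The list was deposited under 1 Isl1 ChIP-Seq sample of pooled embryos, with 1 input sample whose signal was not analysed here. According to the methods and the submitters' processing notes, the authors aligned reads (Bowtie2, mm9), discarded duplicates (Picard 1.136) and called peaks (MACS). Regions blacklisted by ENCODE were dropped, and annotatePeaks.pl named the nearest TSS. The notes also name deepTools. The deposited values are peak positions and signed distances in bp, with no score. The study's methods mention taking the regions common to experimental replicates, but whether this list holds only such regions is not stated. A peak called at a fixed threshold says nothing of its strength, and a gene without a peak may have binding below that threshold.

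The 204 rows were found by symbol after a second header line within the list was skipped. Members, roles, family genes and the run were chosen with earlier results of these data known. Genes, exons and bodies were taken from GENCODE vM1 on the same build (22225 protein-coding genes, 20298 of them also coding in RefSeq, the only ones used for spans); 38384 peaks carried the name of one, and 9911 did not. The TSS implied by position and distance lay within 1000 bp of an annotated TSS of the gene for 175 of the 204 peaks (85.8%), with Slc8a1 and Cacna1c the exceptions, and every peak lay inside its chromosome. The closest annotated coding TSS belonged to the named gene for 185 peaks (90.7%). Distances are those of the list, which can measure peaks of 1 gene from different TSSs. Windows extended 100 bp either side of the midpoint. Named genes were those with a peak within 10 kb of the TSS, over an own exon or without a run, the 3 with the most peaks and those without a peak, and of the family genes those with a peak within 10 kb and the 5 with the most; a few items of this kind are not reported here. Wilson intervals were set at 95%. Alternatives were peak width, distance limits, overlap with the gene body, stricter or wider runs and motifs, and leaving out genes. The search for runs was tested on simulated data, where 400 of 400 planted runs were found. Python 3.11.15, pandas 2.3.3, numpy 2.4.6, scipy 1.17.1, pysam 0.24.0 and matplotlib 3.10.9 were used.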

Additional observations from a re-analysis of the deposited data

How the results depend on the processing

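The 28 genes with a peak became 14 when peaks had to lie within 10 kb of the TSS and 13 when peaks with a run were left out. With wider peaks only, within 100 kb, by the gene body with or without 10 kb around it, or with at least 2 peaks, the count stayed between 22 and 27. Without the longest 25% of the genes it was 20, out of the smaller number of genes that remained. The 204 peaks became 95 when only peaks wider than the list's median of 467 bp were kept, 17 within 10 kb, 102 within 100 kb, 123 by overlap with the gene body and 16 without a run. Without Kcnj2, the gene with the most peaks, 174 remained. The share with TAAT or ATTA was 81.4% over the whole peak in place of 36.3% within 100 bp of the midpoint, and 3.92% for the longer motif. 2 values rested on the 3 genes with the most peaks, an alternative chosen after seeing the data: without them the median distance was 56.9 kb in place of 99.9 kb (order-statistic interval 65.9 to 129 kb), and the share of peaks inside the body of the named gene was 54.5% in place of 37.3%. The share with a run stayed between 87.7% and 94.6%. No paired analysis was possible because only 1 ChIP sample has a peak list. With no replicate list, no heights and an unknown read depth, the spread of any of these values between embryos could not be measured.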
